A study of Homo sapiens with 30 samples.

Results

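The genes described here are 60 genes of human chromosome 20, from CSNK2A1 near the end of the short arm to DIDO1 near the end of the long arm. They were named by symbol, 23 on 20p and 37 on 20q, and were chosen by RNA level: chromosome 20 genes as a group were lower after 4 or 5 crossings of a membrane. Thus the members' values there are given as a description with no test. All 60 were listed among 26364 genes and all 60 were among the 15381 genes with enough counts to be tested. Polyadenylated RNA had been sequenced from A375, an established human melanoma line bought as a population, after sorting for surface integrin β4 (ITGB4) and serial passage through fibronectin-coated membranes with 5 µm pores. There were 30 libraries, 3 in each of 10 groups. For a pair of groups, parental cells were sorted first and crossed afterwards, the negative sort for 4 rounds (Negative then 4 rounds) and the positive sort for 5 (Positive then 5 rounds). Bottom 5 negative cells were the negative sort of a population that had crossed in 5 rounds, and Top 5 positive cells were the positive sort of one that had failed to cross in 5 rounds. Bottom 10 cells had crossed and Top 10 cells had failed to cross in 10 rounds, each as a positive and a negative sort. Parental positive and Parental negative cells had been sorted without migration. All groups are the same line, and the sort gate was set on unstained cells.

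Chromosome 20 carries housekeeping genes of splicing, protein breakdown and secretion beside genes of signalling. GNAS encodes the stimulatory G protein α subunit that couples hormone receptors to adenylyl cyclase, SRC a membrane tyrosine kinase that acts at adhesion sites, and JAG1 a ligand of Notch receptors. PSMA7 and SNRPB belong to complexes, the proteasome core and the Sm ring of spliceosomal particles, whose other subunits are encoded mostly on other chromosomes.

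Gene counts per library were between 14258919 and 29134945, and the members took 0.851 to 1.55% of them. The least counted member had 11528 counts over the 30 libraries. Counts in single libraries went down to 57 for SAMHD1 (Negative then 4 rounds replicate 2) and 143 for RBL1 (Top 5 positive replicate 1). Counting error may thus matter for such values, and it was not set against the spread between libraries. SOX10, a neural crest factor of melanocytes and melanoma, was at 287 to 1460 CPM (counts scaled to a common library total), whereas the pigment genes PMEL and MLANA were at most at 1.68 and 0.539 CPM and TYR was at 0 in 28 libraries. Of the leukocyte genes checked, CD3E was at 0 in 30 libraries and PTPRC at most at 0.16 CPM, whereas CD68 was at 22.5 to 155 CPM and LYZ at 2.16 to 11.5 CPM. Of the keratinocyte genes, KRT10 was at 62.9 to 187 CPM, KRT14 at 0.227 to 40 CPM, and KRT5 and KRT1 at most at 0.811 and 0.116 CPM. Summed over each list, leukocyte genes were at 28.6 to 158 CPM, keratinocyte genes at 65.2 to 219, fibroblast genes at 7.38 to 30.7 and endothelial genes at 3.19 to 23.1, and their part in the results was not tested. ITGB4 RNA averaged 100 ± 66.6 CPM in Parental positive and 27.8 ± 5.13 CPM in Parental negative cells (SD, n = 3 each). The positive and negative sorts averaged 28.9 and 7.38 CPM in Top 10 and 130 and 49 CPM in Bottom 10. Positive then 5 rounds averaged 194 CPM and Negative then 4 rounds 135 ± 162 CPM. Bottom 5 negative averaged 86.3 CPM and Top 5 positive 28.2 CPM. Across groups ITGB4 RNA thus did not follow the name of the sort. A set of 6 libraries stood apart on the second principal component: Top 10 negative replicate 1, Bottom 10 positive replicate 3, Negative then 4 rounds replicate 2, Bottom 5 negative replicate 2 and Top 5 positive replicates 1 and 3. Replicates are called biological, but the labels do not state separate cultures. The p-values may then reflect technical spread alone.

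Of the 60 members, 37 were on the lower side after Negative then 4 rounds against Parental negative, 48 after Positive then 5 rounds against Parental positive, and 41 in Bottom 5 negative against Parental negative. The median log2 fold change of the members, less that of all tested genes, was -0.19, -0.14 and -0.26 in these contrasts, and 33 members were lower in all 3 while 8 were lower in none. Over all tested genes 49.3, 49 and 47.5% were on the lower side. The contrasts of Negative then 4 rounds and Bottom 5 negative share the Parental negative libraries, so agreement between them is partly built in. In bulk RNA, fewer cells with a higher level and less RNA per cell cannot be told apart.

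The member median, less the median of all genes, lay between -0.339 and -0.0895 in the 9 libraries that had crossed 4 or 5 times and between -0.112 and 0.212 in the other 21. This scale is the log2 level less the mean of the parental libraries of the same sort. The parental libraries among the 21 thus lie around 0 by construction. The rule used the 9 libraries, so the places of the ranges, also by arm, are a description. The ranges overlapped through Parental negative replicate 1 (-0.112), Top 5 positive replicate 1 (-0.111) and Top 10 negative replicate 2 (-0.0987). On 20p alone the 9 libraries lay at -0.363 to -0.0795 and the other 21 at -0.0679 to 0.419, without overlap, and on 20q alone they lay at -0.374 to -0.0874 and at -0.201 to 0.216. Without the 6 libraries that stood apart, 46, 48 and 51 members were on the lower side in the 3 contrasts, with medians of -0.19, -0.15 and -0.25 less all genes. Leaving out 1 library moved the median of Negative then 4 rounds both ways. It was -0.12 without Parental negative replicate 3 or without Negative then 4 rounds replicate 1, -0.33 without Parental negative replicate 1, and -0.29 without Negative then 4 rounds replicate 3. The median of Bottom 5 negative was -0.17 without its replicate 1.

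**Figure D1:**
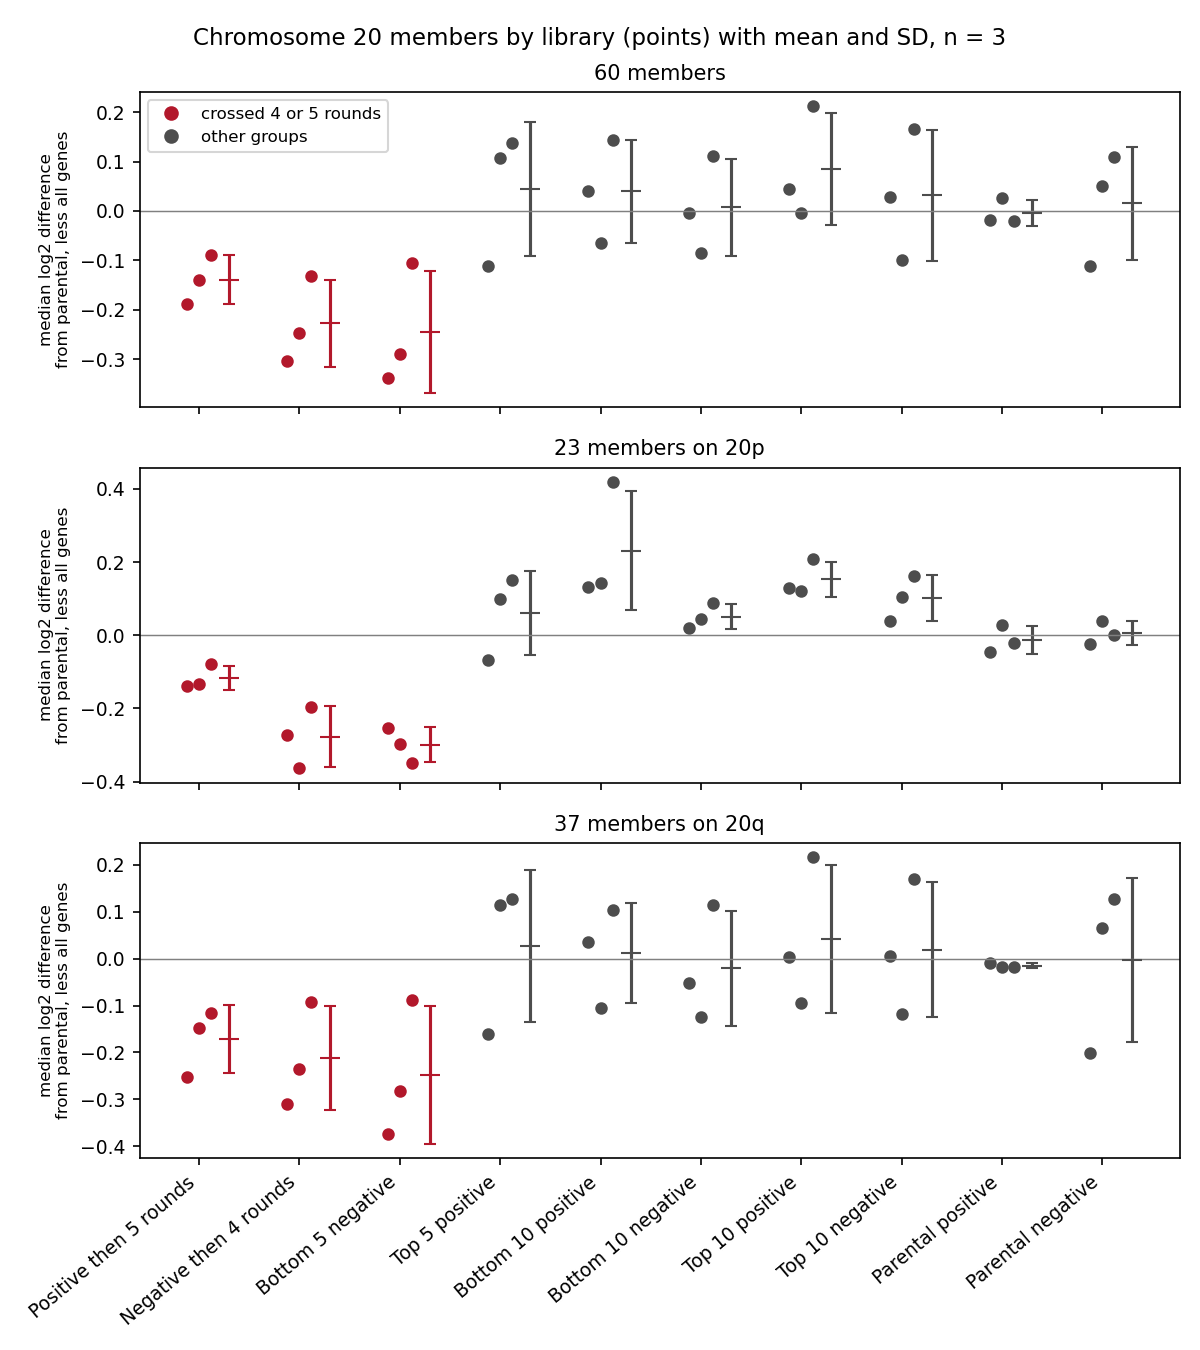
Median log2 difference of the members from the parental mean of the same sort, less the median of all tested genes (y axis), in each library (points), with the mean and SD of each group (n = 3), for all 60 members, 23 on 20p and 37 on 20q. Red marks the 3 groups that crossed 4 or 5 rounds, which lie below 0 in every library. On 20p they do not overlap with the other groups. The rule used the 3 red groups and the parental groups lie around 0 by construction, so this is a description.

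In 17 members all 3 libraries of Negative then 4 rounds lay below all 3 of Parental negative, where 8.95% of all tested genes did so. The same held for 16 members in Positive then 5 rounds against Parental positive (6.92% of tested genes) and for 16 in Bottom 5 negative against Parental negative (6.59%). No member lay wholly above its parental group in any of the 3, where 9.45, 7.12 and 7.15% of tested genes did. The rule used these contrasts, so nothing is read from the counts. The 6 members without overlap in all 3 were CDS2 (phosphatidylinositol precursor synthesis), RRBP1 (an endoplasmic reticulum membrane protein that binds ribosomes), SEC23B (a COPII coat subunit), HM13 (signal peptide peptidase), SRC and PLCG1, singled out after their values were seen.

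**Figure D2:**
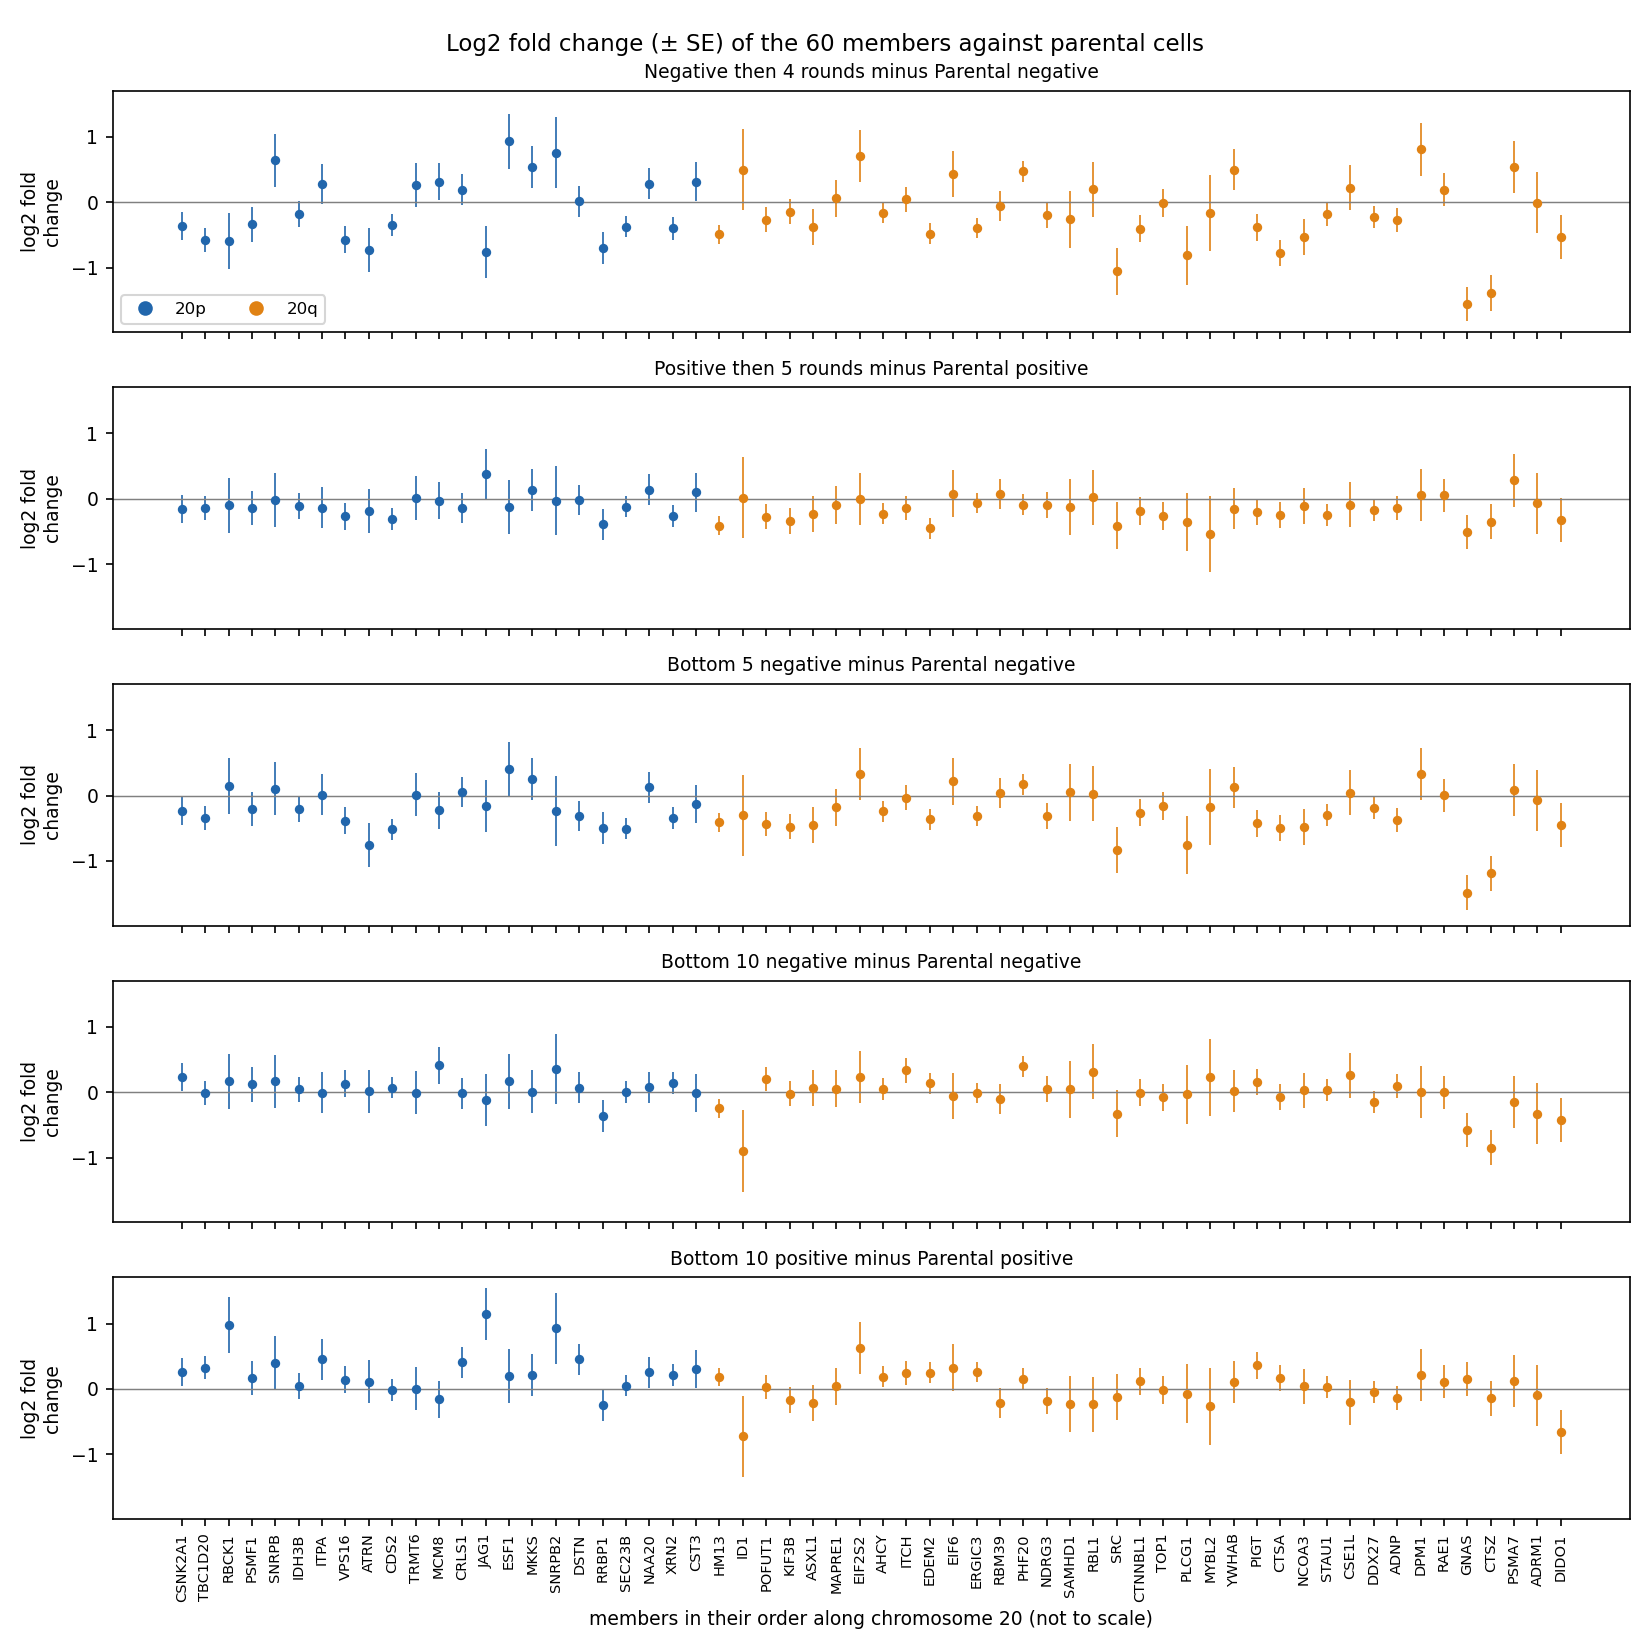
Log2 fold change with SE (y axis) of each of the 60 members, in order along chromosome 20 (x axis, not to scale; blue 20p, orange 20q), in 5 comparisons with parental cells of the same sort. Most points lie slightly below 0 in the first 3 panels, GNAS and CTSZ lie lowest in the first and the third, and the points of the Bottom 10 panels scatter around 0.

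The lowest member over the 3 contrasts was GNAS, followed by CTSZ, SRC and PLCG1. GNAS and CTSZ, the lysosomal carboxypeptidase cathepsin Z, are near neighbours: among tested genes only NELFCD, a subunit of the negative elongation factor, lies between them. The promoters of the 3 genes are shown because the tested results below turn on GNAS and CTSZ, with NELFCD between them. Each run is the 250 bases before a RefSeq start (GRCh38.p14), 5′ to 3′ on the gene's strand, and capitals mark GC boxes (GGGCGG or its reverse complement). GNAS lies on the plus strand at chr20:58839498-58839747 for the first of 6 listed starts, NELFCD on the plus strand at chr20:58981006-58981255, and CTSZ on the minus strand at chr20:59007255-59007504.
GNAS: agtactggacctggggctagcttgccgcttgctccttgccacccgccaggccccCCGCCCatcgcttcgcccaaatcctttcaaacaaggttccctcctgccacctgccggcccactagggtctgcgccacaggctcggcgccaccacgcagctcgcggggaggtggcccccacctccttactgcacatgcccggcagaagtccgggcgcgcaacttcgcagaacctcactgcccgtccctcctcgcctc
NELFCD: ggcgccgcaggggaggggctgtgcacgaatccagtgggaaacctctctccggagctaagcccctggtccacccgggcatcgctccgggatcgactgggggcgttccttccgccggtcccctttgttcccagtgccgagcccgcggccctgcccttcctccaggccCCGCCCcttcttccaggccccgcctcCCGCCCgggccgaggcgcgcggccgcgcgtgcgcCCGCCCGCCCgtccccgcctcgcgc
CTSZ: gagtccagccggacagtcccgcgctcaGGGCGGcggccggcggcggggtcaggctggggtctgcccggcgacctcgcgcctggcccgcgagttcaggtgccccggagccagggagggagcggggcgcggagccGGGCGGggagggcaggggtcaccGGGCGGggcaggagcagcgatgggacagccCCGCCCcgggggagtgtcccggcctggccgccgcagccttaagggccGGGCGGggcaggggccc
The CTSZ window holds 5 GC box matches and the NELFCD window 4, whereas the window at the first GNAS start holds 1. A GC box was found in 42.6% of 35116 RefSeq windows of the same length and in 41 of 74 windows of the 54 members that matched by symbol. Windows with an E-box (CACGTG), a cyclic AMP response element (TGACGTCA) or an AP-1 site (TGANTCA), searched on both strands, made up 6.34, 1.65 and 6.57% of all windows, and 11, 2 and 4 of the 74. None of these 3 motifs was in the printed windows, and an E-box and an AP-1 match lay before another GNAS start. The counts are per symbol and were made on hg19, so they do not say which GNAS start was used. The printed GNAS window is the farthest upstream, and that of the last start is at chr20:58888930-58889179. No GC box was found in the windows of the other GNAS starts. Whether the printed window precedes the transcript of the G protein subunit was not determined, so its GC box count may not describe that transcript.

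GNAS was at 767 to 1193 CPM in the 9 libraries that crossed 4 or 5 times, with a median of 939 CPM, and at 1013 to 6016 CPM in the other 21, with a median of 2121 CPM. In Negative then 4 rounds it was at 970, 928 and 862 CPM, against 3615, 2716 and 1783 CPM in Parental negative, a log2 fold change of -1.56 ± 0.26 (SE). Positive then 5 rounds held 958, 1125 and 820 CPM, against 1194, 1013 and 1914 CPM in Parental positive, or -0.51 in log2 units. The negative sorts did not overlap and the positive sorts did. Bottom 5 negative held 1193, 939 and 767 CPM, or -1.48 in log2 units against Parental negative. GNAS overlaps GNAS-AS1 and LOC101927932 among the listed genes, and the strand setting of the counting was not given in the sources used here; GNAS-AS1 averaged 3.85 CPM over all libraries. CTSZ was at 122 to 244 CPM in the 9 libraries and at 192 to 615 CPM in the other 21. Its log2 fold changes were -1.39, -0.35 and -1.19, while those of NELFCD were -0.51, -0.23 and -0.45.

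The groups of 10 rounds share no library with the contrasts used to choose the members, so GNAS and CTSZ can be tested there. GNAS was lower in crossed than in uncrossed cells of both sorts. Bottom 10 negative held 2121, 1555 and 1780 CPM, against 6016, 3975 and 4147 CPM in Top 10 negative. Every crossed library lay below every uncrossed one, and the mean was 2.59-fold lower, with a log2 ratio of -1.37 ± 0.26 (SE; adjusted p = 0.0052 by edgeR's quasi-likelihood test). In the positive sort, Bottom 10 held 1722, 1380 and 1458 CPM, against 4353, 3055 and 3111 CPM in Top 10, again without overlap and 2.31-fold lower (log2 fold change -1.21 ± 0.26, edgeR adjusted p = 0.0219). The difference between the sorts in this fold change was 0.17 ± 0.37 on the log2 scale (edgeR interaction, adjusted p = 0.998), with an SE too wide to show that the sorts act alike.

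CTSZ was lower in crossed than in uncrossed cells of the negative sort. It was at 261, 192 and 271 CPM in Bottom 10 against 615, 337 and 597 CPM in Top 10 (log2 fold change -1.10 ± 0.27, edgeR adjusted p = 0.0373). In the positive sort it was at 262, 208 and 281 CPM in Bottom 10 and at 490, 290 and 464 CPM in Top 10, and its log2 ratio of -0.73 missed the threshold (edgeR adjusted p = 0.304). The groups did not overlap in either sort. For NELFCD between them, the negative sort gave a log2 ratio of -0.07 (edgeR adjusted p = 0.999). The positive sort gave -0.23 (edgeR adjusted p = 0.925). GNAS and CTSZ were the 2 members called lower in the negative sort, where 0.384% of tested genes were called lower, and GNAS the 1 called lower in the positive sort, where 0.312% were. No member was called higher in either, where 0.949 and 0.631% of tested genes were.

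With replicate number as a block in the 4 groups of 10 rounds, where same-numbered libraries deviated together, 4 members were called in the negative sort, where 9.29% of tested genes were, and 2 in the positive sort, where 7.75% were. The log2 fold changes were -1.36 for GNAS (edgeR adjusted p = 0.000101) and -1.07 for CTSZ (edgeR adjusted p = 0.00074) in the negative sort. They were -1.19 for GNAS (edgeR adjusted p = 0.000292) and -0.70 for CTSZ (edgeR adjusted p = 0.00735) in the positive sort. ID1, an inhibitor of basic helix-loop-helix factors, was also called lower in the negative sort at -1.27 (edgeR adjusted p = 0.0491), and PHF20, a reader of methylated histones, higher at 0.50 (edgeR adjusted p = 0.0204). Without the block the calls were fragile. GNAS in the negative sort missed the threshold without Top 10 negative replicate 1 (edgeR adjusted p = 0.0508), without Bottom 10 negative replicate 2 (edgeR adjusted p = 0.0572) and without the 6 libraries that stood apart (edgeR adjusted p = 0.0704). In the positive sort it missed it without Top 10 positive replicate 1, Bottom 10 positive replicate 2 or Bottom 10 positive replicate 3, and CTSZ in the negative sort missed it in 5 of the 6 fits that left out 1 library. The log2 fold change over all these fits stayed between -1.50 and -1.15 for GNAS in the negative sort, between -1.31 and -1.02 for GNAS in the positive sort, and between -1.33 and -0.946 for CTSZ.

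**Figure D3:**
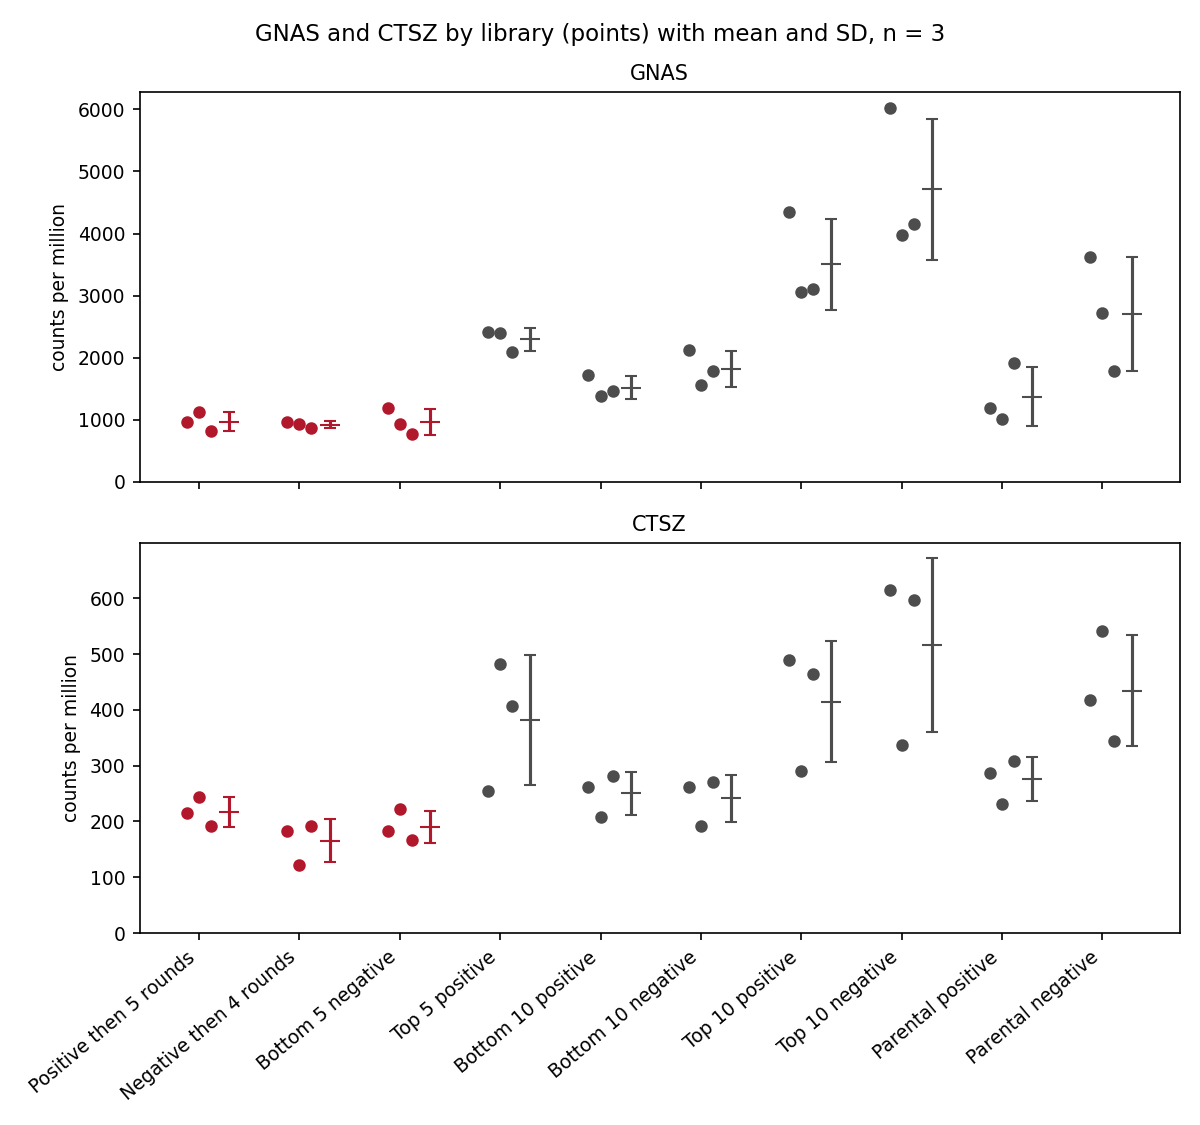
GNAS and CTSZ level in CPM (y axis, from 0) in each library (points) with the mean and SD of each group (n = 3); red marks the 3 groups that crossed 4 or 5 rounds. GNAS is at 1380 to 2121 CPM in the Bottom 10 libraries and at 3055 to 6016 CPM in the Top 10 libraries, and at 767 to 1193 CPM in the red groups.

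Between cells that failed to cross and parental cells, GNAS passed the test in 1 of 3 comparisons. It was at 4353, 3055 and 3111 CPM in Top 10 positive, against 1194, 1013 and 1914 CPM in Parental positive, without overlap (log2 fold change 1.35 ± 0.26, edgeR adjusted p = 0.0149). This was the 1 member called in Top 10 positive against Parental positive, where 0.0585% of tested genes were called higher, and the comparison shares the parental libraries with a contrast used to choose the members. The call was lost without Parental positive replicate 1 or 2 (edgeR adjusted p = 0.153 and 0.15) or Top 10 positive replicate 1 (edgeR adjusted p = 0.147). Top 5 positive held 2415, 2395 and 2084 CPM, and its log2 ratio of 0.74 to Parental positive missed the threshold (edgeR adjusted p = 0.226). Top 10 negative held 6016, 3975 and 4147 CPM, against 3615, 2716 and 1783 CPM in Parental negative, and its log2 ratio of 0.80 ± 0.26 also missed it (edgeR adjusted p = 0.559). Between the parental sorts GNAS was at 1194, 1013 and 1914 CPM in Parental positive and 3615, 2716 and 1783 CPM in Parental negative, or -0.98 ± 0.26 in log2 units (edgeR adjusted p = 0.241), with overlap.

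Of 8 ligands, receptors and signalling genes, 7 were on the lower side in each of the 3 contrasts after 4 or 5 rounds, with medians of -0.75, -0.17 and -0.54. SRC was at 75.9, 24.2 and 69.3 CPM in Negative then 4 rounds, against 118, 131 and 105 CPM in Parental negative (log2 fold change -1.06 ± 0.36). It was at 66.2, 77.0 and 71.5 CPM in Positive then 5 rounds, against 95.9, 85.3 and 104 CPM in Parental positive (-0.41), and the groups overlapped in neither contrast. PLCG1, the phospholipase C that acts below receptor tyrosine kinases, had log2 fold changes of -0.81, -0.36 and -0.76 in the 3 contrasts. In Negative then 4 rounds its libraries held 134, 21.9 and 120 CPM, and the lowest was replicate 2, the library farthest apart in that group. CSNK2A1, the catalytic α subunit of casein kinase 2, was at 165, 97.7 and 177 CPM in Negative then 4 rounds and 195, 184 and 187 CPM in Parental negative (-0.36 ± 0.22). JAG1 did not keep one direction, with log2 fold changes of -0.76, 0.37 and -0.16. YWHAB, a 14-3-3 adaptor, was the member of this role on the higher side after Negative then 4 rounds (0.50) and in Bottom 5 negative (0.12).

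Of 10 members of the secretory pathway and glycan addition, 9 were on the lower side in each of the 3 contrasts, with medians of -0.44, -0.24 and -0.40, and DPM1, the catalytic subunit of dolichol phosphate mannose synthase, was on the higher side in each. SEC23B was at 86.8, 71.5 and 90.5 CPM in Negative then 4 rounds, at 77.1, 64.8 and 84.8 CPM in Bottom 5 negative, and at 101, 115 and 107 CPM in Parental negative. In Positive then 5 rounds it was at 91.6, 91.8 and 94.3 CPM, against 98.9, 101 and 102 CPM in Parental positive. The groups did not overlap in any of these contrasts. POFUT1, which adds O-fucose to Notch receptors, was at 112, 87.6 and 128 CPM in Bottom 5 negative, against 140, 143 and 159 CPM in Parental negative (log2 fold change -0.43 ± 0.19). Of the 3 lysosomal proteases and their inhibitor, CTSA, the protective protein of lysosomal hydrolases, had log2 fold changes of -0.78, -0.25 and -0.49 beside CTSZ. CST3, the cysteine protease inhibitor cystatin C, had 0.31, 0.10 and -0.13.

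The 4 highest members over the 3 contrasts were ESF1, a nucleolar factor of ribosomal RNA processing, DPM1, EIF2S2, the β subunit of translation factor eIF2, and MKKS, a chaperonin-like protein of the basal body. ESF1 was at 50.5, 203 and 74.1 CPM in Negative then 4 rounds, against 47, 58.2 and 66.4 CPM in Parental negative. EIF2S2 was at 203, 797 and 339 CPM, against 310, 258 and 253 CPM. In both the high value is replicate 2, 1 of the 6 libraries that stood apart, and the groups overlapped. Their log2 fold changes were 0.93 ± 0.42 and 0.71 ± 0.40, and after Positive then 5 rounds they were -0.12 and -0.01. EIF6, which keeps ribosomal subunits apart, had 0.43, 0.08 and 0.22. SNRPB, a core Sm protein of spliceosomal particles whose counts are uncertain because SNRPN is a close copy, had 0.64, -0.01 and 0.11. PSMA7, an α subunit of the proteasome core, had 0.54, 0.28 and 0.08.

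Partners of these complexes that lie on other chromosomes were set beside the members. The 6 other Sm ring genes were all on the higher side after Negative then 4 rounds, at 0.51 to 1.47 with a median of 1.16, above the 0.64 of SNRPB. In Bottom 5 negative they were at 0.29 to 0.61 against 0.11 for SNRPB, and after Positive then 5 rounds at 0.08 to 0.40 against -0.01. Of 13 other proteasome core genes, 12 were on the higher side after Negative then 4 rounds and 13 in Bottom 5 negative, with medians of 0.87 and 0.44 beside 0.54 and 0.08 for PSMA7. In Negative then 4 rounds SNRPB was at 343, 1014 and 515 CPM and PSMA7 at 317, 922 and 652 CPM. Both were highest in replicate 2, which stood apart, and the part of that library in the partner values was not tested. CSNK2A1 lay below CSNK2A2 (-0.07) and CSNK2B (0.36) after Negative then 4 rounds. GNAS lay below all 8 other G protein α genes, which ran from -0.34 to 0.43. SRC lay below all 4 genes of the SRC family list, from -0.39 to 0.19. Over the 31 members with partners, 23 lay below the median of their partners after Negative then 4 rounds, 21 after Positive then 5 rounds and 26 in Bottom 5 negative. Against the same parental libraries, 13 did so in Bottom 10 negative, 12 in Bottom 10 positive, 12 in Top 10 negative, 10 in Top 10 positive and 14 in Top 5 positive. The members were chosen for low levels after 4 or 5 rounds, so a place below partners there was partly given in advance. Nothing is read from the difference between these counts.

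**Figure D4:**
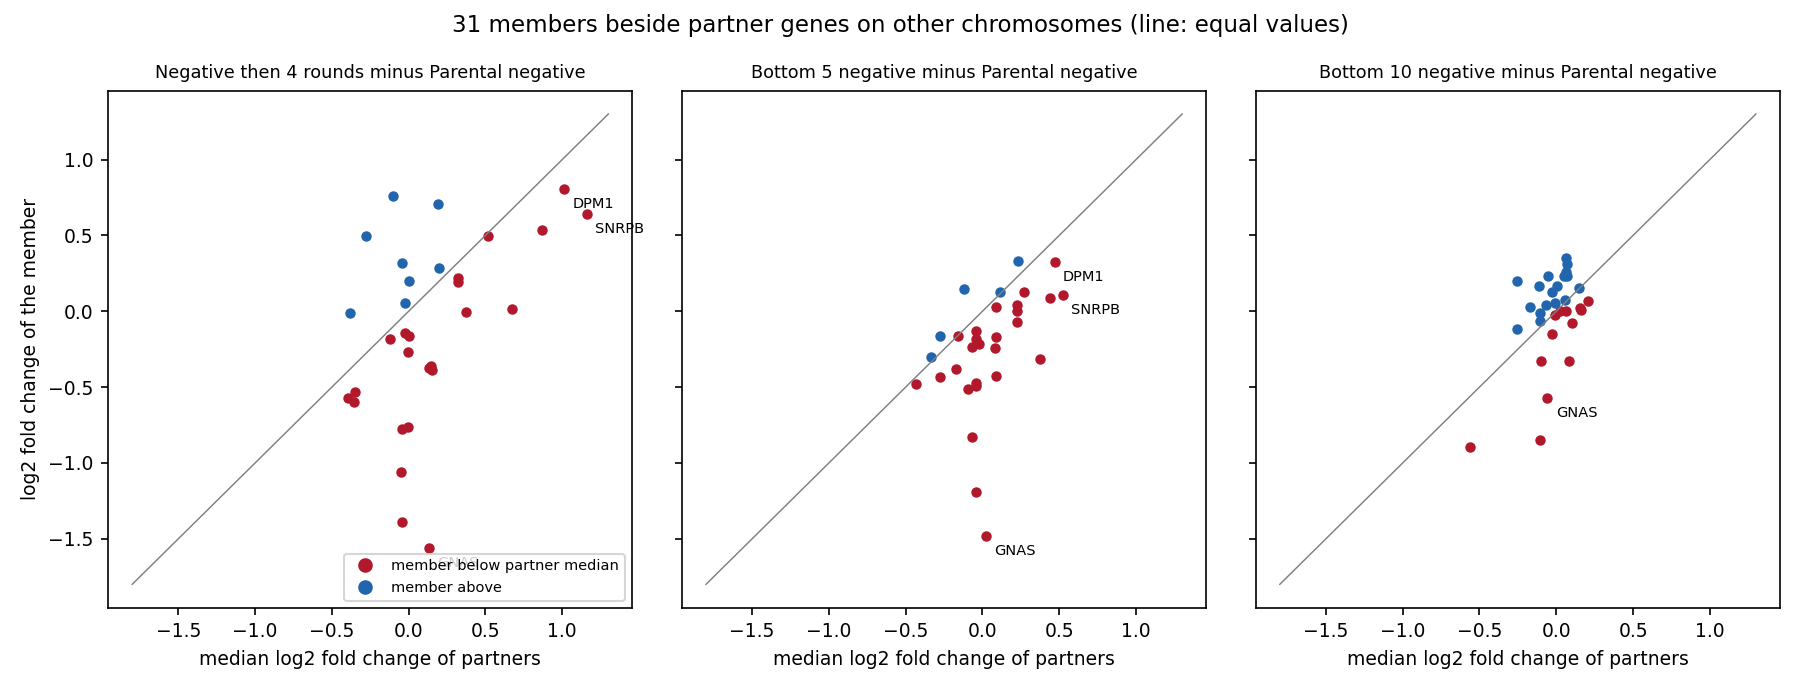
Log2 fold change of each of 31 members (y axis) against the median log2 fold change of its partner genes on other chromosomes (x axis), in 3 comparisons with Parental negative; the line marks equal values. Members lie below the line (red) in 23, 26 and 13 of 31 cases; SNRPB and DPM1 are above 0 in the first panel and yet below the line.

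Among cell cycle and transcription members, MYBL2, the B-MYB factor of the G2 program, was at 144, 128 and 230 CPM in Negative then 4 rounds and 64.0, 223 and 276 CPM in Parental negative (log2 fold change -0.16 ± 0.59). After Positive then 5 rounds MYBL2 was the lowest of the 60 members, at -0.54. Its libraries there held 130, 131 and 207 CPM, against 225, 260 and 193 CPM in Parental positive. In Bottom 5 negative its log2 fold change was -0.17 ± 0.59. RBL1, the pocket protein p107, was at 37.5, 26.5 and 50.5 CPM in Negative then 4 rounds, against 17.4, 37.3 and 45.1 CPM in Parental negative (0.20 ± 0.42). CSE1L, which returns importin α to the cytoplasm, had log2 fold changes of 0.22, -0.09 and 0.04 in the 3 contrasts. Their groups overlapped throughout. TOP1, the DNA topoisomerase that relaxes supercoils ahead of polymerases, had -0.01, -0.26 and -0.17, and its libraries did not overlap after Positive then 5 rounds (227, 255 and 283 CPM, against 285, 344 and 287 CPM in Parental positive). AHCY, which clears S-adenosylhomocysteine after methylation reactions, had -0.16, -0.22 and -0.24. ID1 was at 47.6, 299 and 103 CPM in Negative then 4 rounds against 85.2, 105 and 127 CPM in Parental negative.

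The other 348 tested genes of chromosome 20 had medians of -0.26, -0.14 and -0.22 in the 3 contrasts, and 240, 253 and 258 of them were on the lower side. With all 408 genes, chromosome 20 had the lowest median of 23 chromosomes in each of the 3, at -0.26, -0.15 and -0.25 less all genes. Along the chromosome, 21, 20 and 21 of 21 windows of up to 20 genes had a median below that of all genes, with the lowest windows at -0.57 (DNTTIP1 to SLC13A3), -0.31 (PRPF6 to PCMTD2) and -0.47 (XKR7 to CHMP4B). Both arms took part: the member medians were -0.18 on 20p and -0.19 on 20q after Negative then 4 rounds, and -0.12 and -0.15 after Positive then 5 rounds. The rule chose chromosome 20 because its genes were lower as a group in these contrasts. Its rank, windows and arms are therefore a description and no support for that choice.

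**Figure D5:**
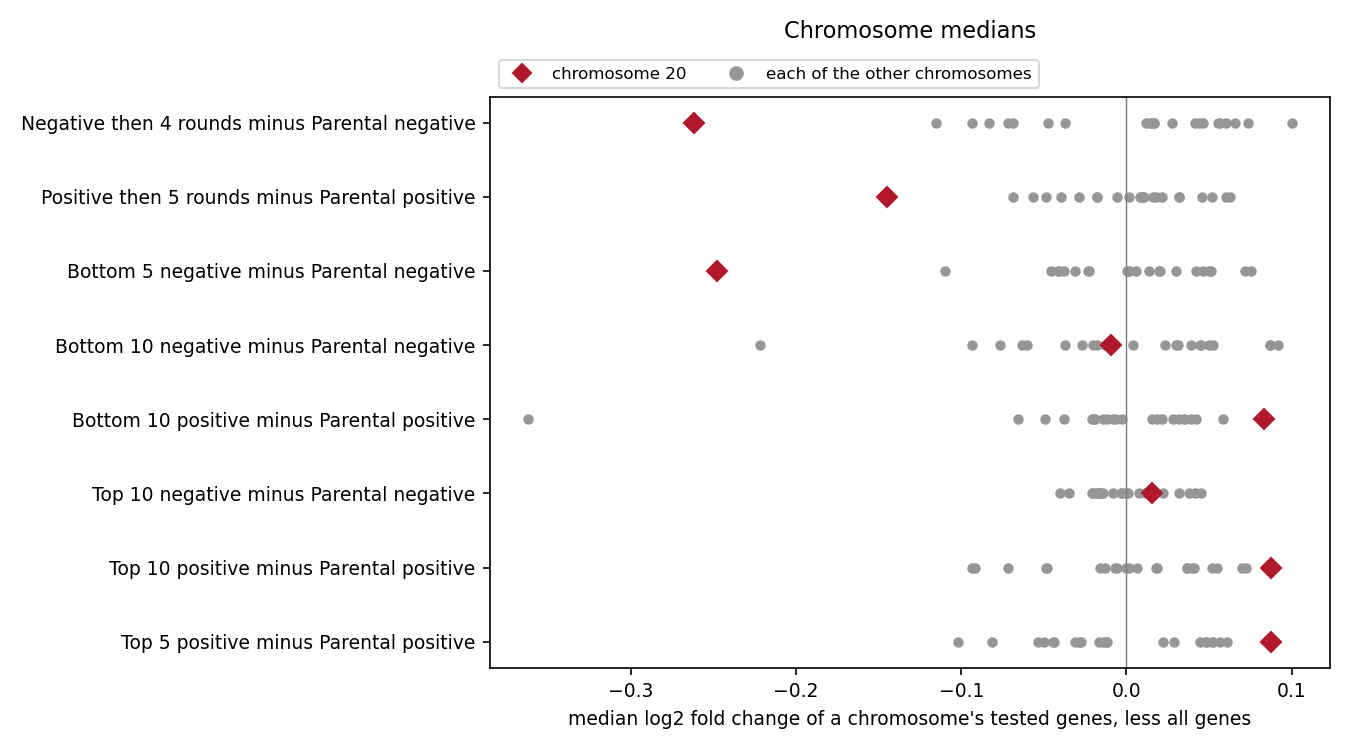
For each chromosome, the median log2 fold change of its tested genes minus the median over all tested genes (x axis), in 8 comparisons with parental cells of the same sort (y axis); red diamonds mark chromosome 20. It is the lowest of 23 chromosomes in the 3 upper rows (-0.26, -0.15 and -0.25), and in the 10 round and uncrossed groups it lies within the others or is the highest, at up to 0.09. The rule chose chromosome 20 from the contrasts of the 3 upper rows, so its place there is a description.

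After 10 rounds the members were not lower than in parental cells as a group. Less all genes, the member median was 0.02 in Bottom 10 negative and 0.07 in Top 10 negative against Parental negative, and 0.06 in Bottom 10 positive, 0.08 in Top 10 positive and 0.03 in Top 5 positive against Parental positive. These comparisons share the parental libraries with those used to choose the members, so the values are set side by side only. They lie near 0, and 1 library could turn them: the median was -0.06 in Bottom 10 negative and -0.05 in Top 10 negative without Parental negative replicate 1, and -0.03 in Bottom 10 positive without its replicate 3, which stood apart. Chromosome 20 ranked 11 and 17 of 23 from the lowest in Bottom 10 negative and Top 10 negative, and highest in the other 3. Bottom 10 negative against Bottom 5 negative, which uses libraries of the rule, had 45 of 60 members on the higher side and a median of 0.30 less all genes, and 24 members lay wholly above Bottom 5 negative, where 6.44% of tested genes did. POFUT1 was at 174, 157 and 177 CPM in Bottom 10 negative, against 112, 87.6 and 128 CPM in Bottom 5 negative. Positive then 5 rounds against Top 5 positive, which also uses libraries of the rule, had 43 members on the lower side. The median was -0.17 less all genes, or -0.31 without Top 5 positive replicate 1. The former cells were sorted before they crossed, and the latter after they had failed to cross. Crossing and the time of sorting therefore cannot be told apart in this comparison.

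The edgeR test called 0 of 60 members in Bottom 10 negative against Parental negative (0.325% of tested genes called), Bottom 10 positive against Parental positive (0.247%), Top 10 negative against Parental negative (0.0455%) and Top 5 positive against Parental positive (0.163%). At an unadjusted p under 0.05 the member counts were 3, 2, 3 and 11, beside 7.64, 8.30, 4.74 and 17.4% of tested genes, and DESeq2 called 0 in each. In Top 5 positive, SNRPB2, a U2 particle protein, was at 1013, 175 and 324 CPM, against 108, 135 and 161 CPM in Parental positive (log2 fold change 1.90 ± 0.55, edgeR adjusted p = 0.226). Without Top 5 positive replicate 2, which left the pair of libraries that stood apart, 5 members were called there, where 7.69% of tested genes were. JAG1 in Bottom 10 positive was at 30.9, 49.3 and 21.5 CPM, against 14.7, 17.2 and 14.2 CPM in Parental positive, without overlap (log2 fold change 1.14 ± 0.40, edgeR adjusted p = 0.403).

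In Top 10 positive against Top 10 negative 0 members were called (0.013% of tested genes) and in Bottom 10 positive against Bottom 10 negative 0 (0% of tested genes), with member medians of -0.02 and 0.00 less all genes and 0 members at an unadjusted p under 0.05 in either. Parental positive against Parental negative called 0 (0.0585% of tested genes), with 2 members at an unadjusted p under 0.05 and a median of -0.03 less all genes. DESeq2 called 0, 0 and 1 member in these comparisons, the 1 being GNAS, lower in Parental positive. In 10 members Parental positive lay wholly below Parental negative and in 0 wholly above, where 4.96 and 4.47% of tested genes did so. Top 10 positive against Top 5 positive also called 0 (0.0455% of tested genes), as did DESeq2, with 20 members at an unadjusted p under 0.05 beside 21.7% of tested genes. The member median there was 0.15 less all genes, with 43.3% of members and 51.8% of tested genes on the lower side. CSNK2A1 was at 206, 257 and 218 CPM in Top 10 positive, against 135, 171 and 146 CPM in Top 5 positive (log2 fold change 0.59 ± 0.22, edgeR adjusted p = 0.173). The interaction of crossing and sort at 10 rounds called 0 members (0% of tested genes), with 0 members at an unadjusted p under 0.05 and 0 by DESeq2.

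Spearman's coefficient between length and log2 fold change across the 60 members, which share libraries and depth, was -0.24 after Negative then 4 rounds, -0.31 after Positive then 5 rounds and -0.32 in Bottom 5 negative, beside -0.22, -0.17 and -0.21 across 13518 genes. The median log2 fold change was -0.21, -0.14 and -0.31 for the 30 longer members and -0.11, -0.10 and -0.21 for the 30 shorter ones. Among the 10 round groups the members' coefficient was 0.36 for Bottom 10 against Top 10 negative and -0.45 for the positive sort. It was 0.55 for Top 10 positive against Top 10 negative and -0.495 for Bottom 10 positive against Bottom 10 negative. Across all genes these 4 were 0.19, -0.22, 0.26 and -0.28. The part of length in the results was not tested.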

How the data were processed

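The values deposited by the authors are raw read counts for each gene symbol, and the submitters' processing notes name STAR, HTSeq, DESeq and the build hg19. Versions, parameters, annotation and strand setting are not given in the sources used here. Reads that matched no gene (22.1 to 31.8%) were left out. Labels name 5 rounds in the series text and 4, 5 and 10 in the titles, which were followed. Cells grown from a single cell were not analysed here and the labels do not tie samples to a sorter.

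Genes passing the edgeR filter (minimum count 10, minimum total 15) were scaled with TMM factors and fitted in 1 quasi-likelihood model of 10 groups (edgeR 4.0.16, R 4.3.3), with Benjamini-Hochberg adjustment over all 15381 tested genes at 0.05. SEs were taken from the fitted log2 ratio and its F statistic. CPM use TMM-scaled library sizes, and log2 levels a prior count of 2. No test is reported for the contrasts that chose the members. Alternatives were DESeq2 1.42.0, RLE factors, no filter, a replicate block, only the compared groups, and leaving out each library. Added after seeing the data were a fit without 6 libraries (second component above 30) and a replicate block in the 4 groups of 10 rounds. There, same-numbered libraries deviated together, with 17 of 18 correlations of deviations above 0.1 (-0.122 to 0.791) and all of those between the compared groups above it. No label says that numbers pair libraries. The fit was tested on simulated data.

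The members, role groups and partner lists were chosen with earlier results of these data known. Named members were those called (up to 6 a comparison), the 4 lowest and 4 highest over the 3 contrasts that chose the members, and 15 picked for their roles. Others were named where a sentence says so or for a role's range. Chromosomes and order came from RefSeq by symbol (98.1% of tested genes), lengths from GENCODE and promoters from RefSeq (GRCh38.p14; 54 of 60 members matched). Listed genes overlap 18 members, whose counts are uncertain without a strand setting.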

Additional observations from a re-analysis of the deposited data

How the results depend on the processing

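Direction was kept under every alternative run for the called genes and for the member medians of the contrasts that include libraries crossed 4 or 5 times. Member medians of other comparisons turned sign in some fits. In Top 10 positive against Top 5 positive the median was 0.149, and -0.0386 without the 6 libraries that stood apart. With only the compared groups in the fit, 0 members were called in Top 10 positive against Parental positive and in Bottom 10 against Top 10 of either sort. Without the 6 libraries that stood apart, the counts were 3 (SNRPB2, DSTN and GNAS), 0 in the negative sort and 0 in the positive sort, and the median of Positive then 5 rounds against Top 5 positive was -0.263. Bottom 10 negative against Top 10 negative kept 1 called member with no filter on low counts. DESeq2 called 1 member, GNAS, in Parental positive against Parental negative.

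Same-numbered libraries of the 10 round groups deviated together, which is a hint from the data and not a stated pairing. Those of Bottom 5 negative and Parental negative did so too, with correlations of deviations of 0.59, 0.379 and 0.415. The replicate block in these 4 groups called 4 members in the negative sort and 2 in the positive sort. A replicate block was also fitted over all 30 libraries, for which no label states a pairing by number. It left the counts at 2, 1 and 1 in Bottom 10 against Top 10 negative, Bottom 10 against Top 10 positive and Top 10 positive against Parental positive.

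Leaving out 1 library at a time, the median of Negative then 4 rounds against Parental negative ran from -0.325 (without Parental negative replicate 1) to -0.124 (without Parental negative replicate 3 or Negative then 4 rounds replicate 1), and that of Positive then 5 rounds against Top 5 positive from -0.309 (without Top 5 positive replicate 1) to -0.128. Called members ran from 0 to 9 in Bottom 10 against Top 10 negative and from 0 to 3 in the positive sort, both highest with the block and without replicate 3, and from 0 to 1 in Top 10 positive against Parental positive and against Top 10 negative. They ran from 0 to 5 in Top 5 positive against Parental positive and from 0 to 6 in Top 10 positive against Top 5 positive, both highest without Top 5 positive replicate 2. The cause was not tested.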
